A study of Mus musculus with 9 samples.

Results

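The genes described here are those in the nucleus that encode the subunits of the oxidative phosphorylation machinery, together with cytochrome c and the complex I assembly factors that share the Nduf name. They were chosen by name: probes whose RefSeq accession maps to a mouse symbol starting with Nduf, Uqcr, Atp5, Cox4, Cox5, Cox6, Cox7 or Cox8, or to Sdha, Sdhb, Sdhc, Sdhd, Cyc1 or Cycs. The rule uses no measured value, although the gene family was picked with earlier results of these data known. It gave 95 genes with 128 probes, out of 20660 named genes on the array. Of the 95, 90 were bright enough to be tested, and all 90 were well above background on all 3 arrays of each group, so none entered the test through 1 group alone. The other 5 were forms of complex IV subunits restricted to other tissues or paralogous (Cox6a2, Cox7b2, Cox8b, Cox8c and Ndufa4l2), each above background on at most 1 array of a group.

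The RNA came from mouse colon organoids, epithelial structures grown in culture, that were untreated (called 0 weeks, 3 samples) or had been kept with inflammatory reagents for 12 weeks (3 samples) or for 60 weeks (3 samples). The labels do not name the reagents, the mouse strain or the age, and do not say whether samples of a group came from separate animals or cultures, so p-values here measure only the spread between these samples. There were no untreated cultures kept for 12 or 60 weeks, so treatment and time in culture cannot be told apart. Total RNA was labelled with Cy3 and hybridised to single-colour Agilent arrays, 1 array per sample.

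Each array had 49.2 to 52.7% of its probes well above background, and 0 spots were saturated. In all, 8 arrays lay on slide 1, in 2 rows, and 60-week replicate 3 lay alone on slide 2. Row 1 held the 3 arrays of 0 weeks and 12-week replicate 1. Row 2 held 12-week replicates 2 and 3 and 60-week replicates 1 and 2. No row held both 0-week and 60-week arrays, so row and group cannot be told apart for that comparison except through the 12-week arrays. All 16 epithelial markers checked were measured, and their summed level, in multiples of the array's 75th percentile, was 2333 to 2787 at 0 weeks, 2707 to 3020 at 12 weeks and 2533 to 2807 at 60 weeks. Of the 16, 7 rose (43.8%, against 19.1% of all tested genes) and 0 fell at 12 against 0 weeks (median log2 difference 0.23). At 60 against 0 weeks 3 rose (18.8%, against 16.7%) and 1 fell (6.25%, against 16.1%). At 60 against 12 weeks 0 were higher and 5 lower (31.2%, against 17.6%), with a median of -0.13. Among these 5 were the differentiation markers Car1 (-6.76) and Krt20 (-3.29). Car1 differed by 4.03 at 12 weeks and by -2.73 at 60 weeks, both against 0 weeks. Of the markers of other cells, 3 of 9 fibroblast markers and 5 of 9 leukocyte markers on the array were above background, while Ptprc, Lyz2, Pdgfra and Dcn were not. The summed leukocyte list was 31.2 to 37.4 at 0 weeks, 50.4 to 68.2 at 12 weeks and 51.1 to 59.2 at 60 weeks, within which Cd14 rose by 0.78 at 12 weeks and 0.74 at 60 weeks on the log2 scale and Csf1r fell by 0.37 at 60 weeks, all against 0 weeks. The summed fibroblast list was 0.172 to 0.245 at 0 weeks, 0.250 to 0.370 at 12 weeks and 0.203 to 0.209 at 60 weeks; within it Vim was at least 4.73-fold higher at 12 against 0 weeks (not well above background on any 0-week array, adjusted p = 7.9e-06) and Col1a1 at least 3.15-fold lower (not well above background on any 12-week array, adjusted p = 0.00077). Of 5 endothelial markers 3 were measured, with a sum of 8.61 to 10.9 at 0 weeks, 6.89 to 8.97 at 12 weeks and 8.71 to 11.5 at 60 weeks, and Vwf was at least 7.06-fold higher at 60 against 0 weeks (adjusted p = 0.00042). A bound of this kind sets the dim group at the lowest signal well above background on each array, or at the probe's own where higher. The part of cell composition in the results below was not tested, and in bulk RNA fewer cells of a type and less RNA per cell cannot be told apart.

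Oxidative phosphorylation takes place at the inner mitochondrial membrane. Complex I accepts electrons from NADH and complex II from succinate, ubiquinone passes them to complex III, cytochrome c carries them to complex IV, which reduces oxygen, and ATP synthase uses the proton gradient they build. The mitochondrial genome encodes some subunits and the nucleus the others. In the colon, mature epithelial cells are known to oxidise butyrate in their mitochondria, while cells at the crypt base rely more on glycolysis.

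At 12 against 0 weeks, more of these genes fell than rose, and 54 of the 90 did not pass the test. In all, 30 fell and 6 rose (limma, Benjamini-Hochberg adjusted p under 0.05 over all 14034 tested genes), and the median difference was -0.23 on the log2 scale, against -0.06 over all tested genes. That is 33.3% of them called lower and 6.67% called higher, where all tested genes had 22.7% called lower and 19.1% called higher. At 60 weeks against 0 weeks, 10 fell and 2 rose, with a median of -0.10 (all genes -0.04, with 16.1% called lower and 16.7% called higher). Under the alternative settings described below, 0 of these 10 falls and 0 of the 2 rises held in every setting. Between the treated groups, 18 were higher and 7 lower at 60 weeks than at 12 weeks, with a median of 0.14 that turned to -0.049 under quantile normalization (all genes 0.02, with 20.7% called higher and 17.6% called lower). The F test over the 3 groups called 40 of the 90, or 44.4%, against 56.7% of all tested genes. All 3 comparisons share arrays: of the 30 genes that fell at 12 weeks, 11 were higher at 60 than at 12 weeks and 5 were also lower at 60 than at 0 weeks, and all 6 that rose at 12 weeks were lower at 60 than at 12 weeks. The shared 12-week arrays favour the opposite sign at 60 against 12 weeks, and the shared 0-week arrays the same sign at 60 against 0 weeks. The matching counts over all tested genes were not taken, so no return is read from these numbers.

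The median difference at 12 weeks depended on how the arrays were scaled. Levels are log2 intensities relative to each array's 75th percentile. With quantile normalization in its place, 17 genes fell and 15 rose at 12 weeks with a median of -0.057, and at 60 against 12 weeks 11 were higher and 19 lower. Of all tested genes, 21.3% then fell and 21.5% rose at 12 weeks, and 18.55% were higher and 19.71% lower at 60 against 12 weeks. Other bright genes (level of at least 4, a limit chosen after the data were seen) were also more often lower than higher at 12 weeks. The limit is a floor, and levels above it were not matched to those of the members. Of these 2470 genes, 681 were called lower and 347 higher at 12 weeks against 0 weeks, with a median of -0.12. Under quantile normalization 474 were lower and 556 higher, with a median of 0.02. The 77 members at that level had 28 (36.4%) called lower and 3 higher, with a median of -0.24, and 15 and 12 with a median of -0.07 under quantile normalization. All 6 genes that rose and 17 of the 30 that fell at 12 weeks kept their call under quantile normalization.

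**Figure D1:**
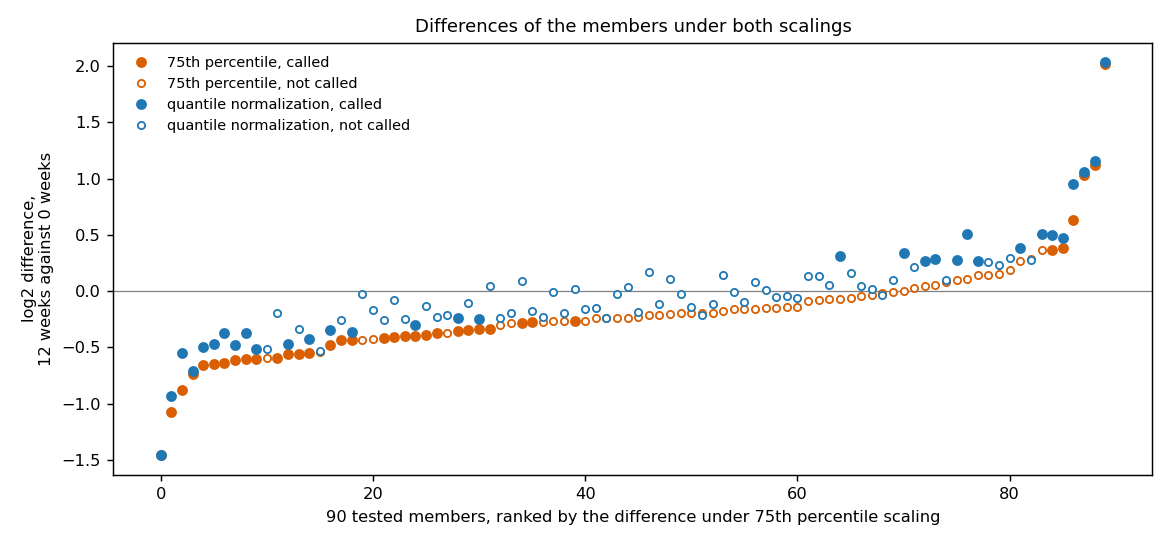
Each point is 1 of the 90 tested genes, ranked along the horizontal axis by its difference, with the log2 difference of 12 weeks against 0 weeks on the vertical axis, under scaling to the 75th percentile (orange) and under quantile normalization (blue); filled points had an adjusted p under 0.05. Most orange points lie below 0 (median -0.23), while the median of the blue points is -0.057.

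One 12-week array stood apart. The median difference of the 90 genes from the 0-week mean was -0.08, -0.01 and 0.10 on the 0-week arrays, -0.30, -0.05 and -0.31 on the 12-week arrays, and -0.15, -0.12 and -0.03 on the 60-week arrays. Replicate 2 at 12 weeks lay among the untreated arrays, and replicates 1 and 3 lay below all of them. It was the highest of the 3 arrays at 12 weeks for 82 of the 90 genes (91.1%), against 45.5% of all tested genes and 59.4% of the other genes of level 4 or more. Over all tested genes this array also had the lowest weight (0.158, against 0.589 to 3.51 for the others) when arrays were weighted. Without it, 44 genes were lower and 6 higher at 12 weeks with a median of -0.31, and 38 were higher and 7 lower at 60 against 12 weeks. Of all tested genes, 29.0% were then lower and 23.8% higher at 12 weeks, and 27.5% higher and 22.9% lower at 60 against 12 weeks. Leaving out any other array lowered the count of genes that fell at 12 weeks, to 12 without 0-week replicate 3, 14 without 0-week replicate 2 or 12-week replicate 3, 16 without 12-week replicate 1, and 20 to 28 without each of the rest. Of all tested genes, 16.1% fell without 0-week replicate 3 and 15.9% without 0-week replicate 2. The share was 16.8% without 12-week replicate 3 and 17.6% without 12-week replicate 1. In these fits the members' share of falls was near or below that of all tested genes. Of the 90 members 4 to 5 rose in them, against 14.2 to 15.5% of all tested genes. The members' median was -0.24 to -0.18, against -0.05 over all tested genes.

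**Figure D2:**
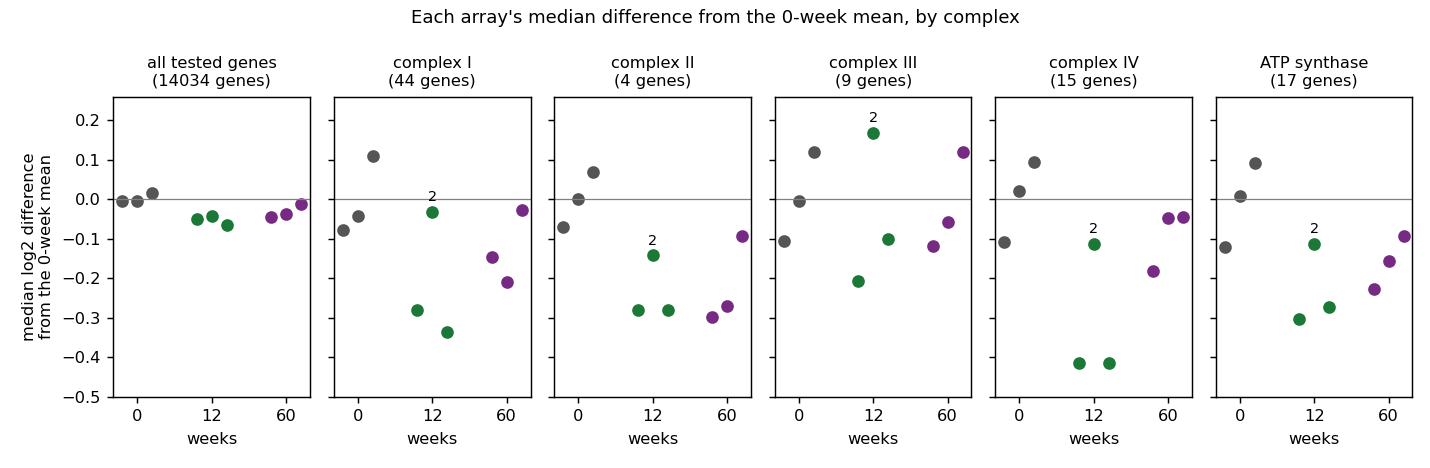
Each point is 1 array, placed by group along the horizontal axis (0, 12 and 60 weeks), with the median log2 difference from the 0-week mean over the genes of a complex on the vertical axis; the digit marks replicate 2 at 12 weeks. Over all tested genes the arrays lie between -0.06 and 0.02, whereas replicates 1 and 3 at 12 weeks lie at -0.41 for complex IV and replicate 2 at -0.11.

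Several nuclear factors are known to act on these genes together, so the promoters were searched for their motifs. RefSeq promoter windows of 300 bases around the gene's start (GRCm38.p6) were found for 77 of the 95 genes, in 82 windows. The NRF1 core GCGCATGC, read on both strands, was in 15.9% of these windows and in 2.71% of all 32851 windows in the table. The ETS motif CCGGAAG was in 23.2% against 8.86%, the YY1 motif AAGATGGC in 13.4% against 2.75%, the CREB motif TGACGTCA in 6.10% against 1.79%, and the estrogen-related receptor motif TCAAGGTCA in 2.44% against 0.423%. By the 12-week call, the NRF1 core was in 2 of 5 genes that rose, 3 of 24 that fell and 8 of 46 that were not called, and the ETS motif in 0, 2 and 17 of them. Below are the windows of a gene that fell (Ndufa6, chr15:82354242-82354541, minus strand) and of both genes that rose and hold the NRF1 core (Ndufaf4, chr4:24897833-24898132, plus strand, and Cycs, chr6:50566520-50566819, minus strand), since genes of both directions carry these letters. Each is written 5′ to 3′ along the gene, with capitals for the NRF1 core in either orientation and, at the first capitals of Cycs, for the CREB motif; in Ndufaf4 the first run of capitals holds overlapping matches on both strands.
Ndufa6: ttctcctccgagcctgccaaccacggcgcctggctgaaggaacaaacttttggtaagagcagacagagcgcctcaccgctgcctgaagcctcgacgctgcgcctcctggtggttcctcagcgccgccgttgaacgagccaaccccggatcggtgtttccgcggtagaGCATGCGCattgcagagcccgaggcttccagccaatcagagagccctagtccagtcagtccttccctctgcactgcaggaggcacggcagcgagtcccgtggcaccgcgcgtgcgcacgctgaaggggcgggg
Ndufaf4: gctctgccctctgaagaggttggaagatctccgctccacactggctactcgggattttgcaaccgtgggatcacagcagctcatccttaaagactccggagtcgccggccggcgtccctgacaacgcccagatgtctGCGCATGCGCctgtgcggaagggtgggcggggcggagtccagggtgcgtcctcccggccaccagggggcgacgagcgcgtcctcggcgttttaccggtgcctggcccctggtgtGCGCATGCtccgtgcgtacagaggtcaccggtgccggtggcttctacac
Cycs: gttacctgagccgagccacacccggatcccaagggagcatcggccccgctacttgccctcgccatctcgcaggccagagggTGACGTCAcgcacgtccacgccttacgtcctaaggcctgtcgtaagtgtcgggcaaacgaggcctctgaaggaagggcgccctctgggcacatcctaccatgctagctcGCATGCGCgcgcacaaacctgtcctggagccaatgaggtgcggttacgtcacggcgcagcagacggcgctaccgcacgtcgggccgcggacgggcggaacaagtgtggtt

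Complex I had 44 tested genes, of which 12 fell (27.3%) and 2 rose (4.55%) at 12 weeks against 0 weeks (median -0.21, and -0.12 under quantile normalization). All tested genes had 22.7% called lower and 19.1% called higher, so the share that fell was near that of all genes. By role, 2 of 7 core subunits (28.6%), 9 of 29 supernumerary subunits (31%) and 1 of 8 assembly factors (12.5%) fell. Ndufa6 (chromosome 15), a supernumerary subunit, had levels of 6.50, 6.74 and 6.71 on the 0-week arrays, 5.45, 5.82 and 5.47 on the 12-week arrays and 6.45, 6.41 and 6.58 on the 60-week arrays. The 12-week arrays lay below both other groups with no overlap, while the 60-week and 0-week arrays overlapped. It was 2.10-fold lower at 12 weeks (log2 difference -1.07, SE 0.13, adjusted p = 0.00039) and rose by 0.90 at 60 against 12 weeks (SE 0.13, adjusted p = 0.0013), and both calls held in all 22 alternative settings.

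Ndufab1, which encodes the mitochondrial acyl carrier protein that is also a complex I subunit, went the other way. Its levels were 1.20, 1.23 and 1.57 on the 0-week arrays, 2.55, 2.07 and 2.47 on the 12-week arrays and 1.29, 1.24 and 1.57 on the 60-week arrays. Every 12-week array lay above every other array. The log2 difference was 1.03 (SE 0.17, adjusted p = 0.0018) at 12 against 0 weeks, with the opposite sign at 60 against 12 weeks (SE 0.17, adjusted p = 0.0028).

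Among the assembly factors, Ndufaf4 had levels of 3.37, 2.55 and 3.07 at 12 weeks, against 1.91, 1.81 and 1.90 at 0 weeks. No 12-week array overlapped the untreated ones, and the log2 difference was 1.12 (SE 0.25, adjusted p = 0.0083). At 60 weeks Ndufaf4 was at 1.84, 1.45 and 2.30, a range that spans the untreated arrays (log2 difference -0.01, adjusted p = 0.98). Ndufaf2, another assembly factor, was lower at both times, with 2.31, 2.26 and 2.31 at 12 weeks, against 2.99, 2.99 and 3.13 at 0 weeks. At 60 weeks its levels were 2.28, 1.93 and 2.45, all below the untreated arrays. The log2 difference was -0.74 (SE 0.13, adjusted p = 0.0031) at 12 weeks and -0.81 (SE 0.13, adjusted p = 0.0024) at 60 weeks, both against 0 weeks.

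The small membrane subunit Ndufa1, encoded on the X chromosome, was likewise lower at both times. It had 6.11, 6.17 and 6.44 on the 0-week arrays, 5.74, 5.70 and 5.64 on the 12-week arrays and 5.52, 5.70 and 5.65 on the 60-week arrays. Neither treated group overlapped the untreated one (log2 difference -0.55, adjusted p = 0.0052, at 12 weeks and -0.62, adjusted p = 0.0036, at 60 weeks). The membrane-arm subunit Ndufb10 fell by 0.66 at 12 weeks (adjusted p = 0.0049), and differed by -0.34 at 60 weeks (adjusted p = 0.079). Ndufb5 fell by 0.60 at 12 weeks and by 0.45 at 60 weeks by its brighter probe, but its dimmer probe gave 0.03 and -0.38. At 60 weeks Ndufs6 and Ndufa5 also fell, by 0.48 and 0.46 (adjusted p = 0.018 and 0.014), each not called at 12 weeks. Ndufv3 fell by 0.56 at 12 against 0 weeks (adjusted p = 0.042) and was 0.74 higher at 60 against 12 weeks (adjusted p = 0.016), while at 60 against 0 weeks its probes gave 0.19 and -0.38.

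Of the 7 core subunits, which carry the NADH site and the iron-sulfur clusters, 0 passed the test at 60 against 0 weeks. Among all tested genes, 32.8% passed it. The iron-sulfur subunit Ndufs7 (chromosome 10) was at 6.35, 6.38 and 6.48 on the 0-week arrays, 5.87, 6.22 and 5.88 on the 12-week arrays and 6.57, 6.50 and 6.80 on the 60-week arrays. Its 60-week arrays lay above all others and its 12-week arrays below all others. The 60 against 12 weeks difference was 0.63 (SE 0.13, adjusted p = 0.0063), and 12 against 0 weeks -0.42 (SE 0.13, adjusted p = 0.031). Ndufs8 and the NADH-binding Ndufv1, both on chromosome 19, were higher at 60 than at 12 weeks by 0.65 and 0.34 (adjusted p = 0.0066 and 0.024). For Ndufs1, the largest core subunit, the differences from 0 weeks were -0.21 at 12 weeks and -0.14 at 60 weeks, and neither passed the test.

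**Figure D3:**
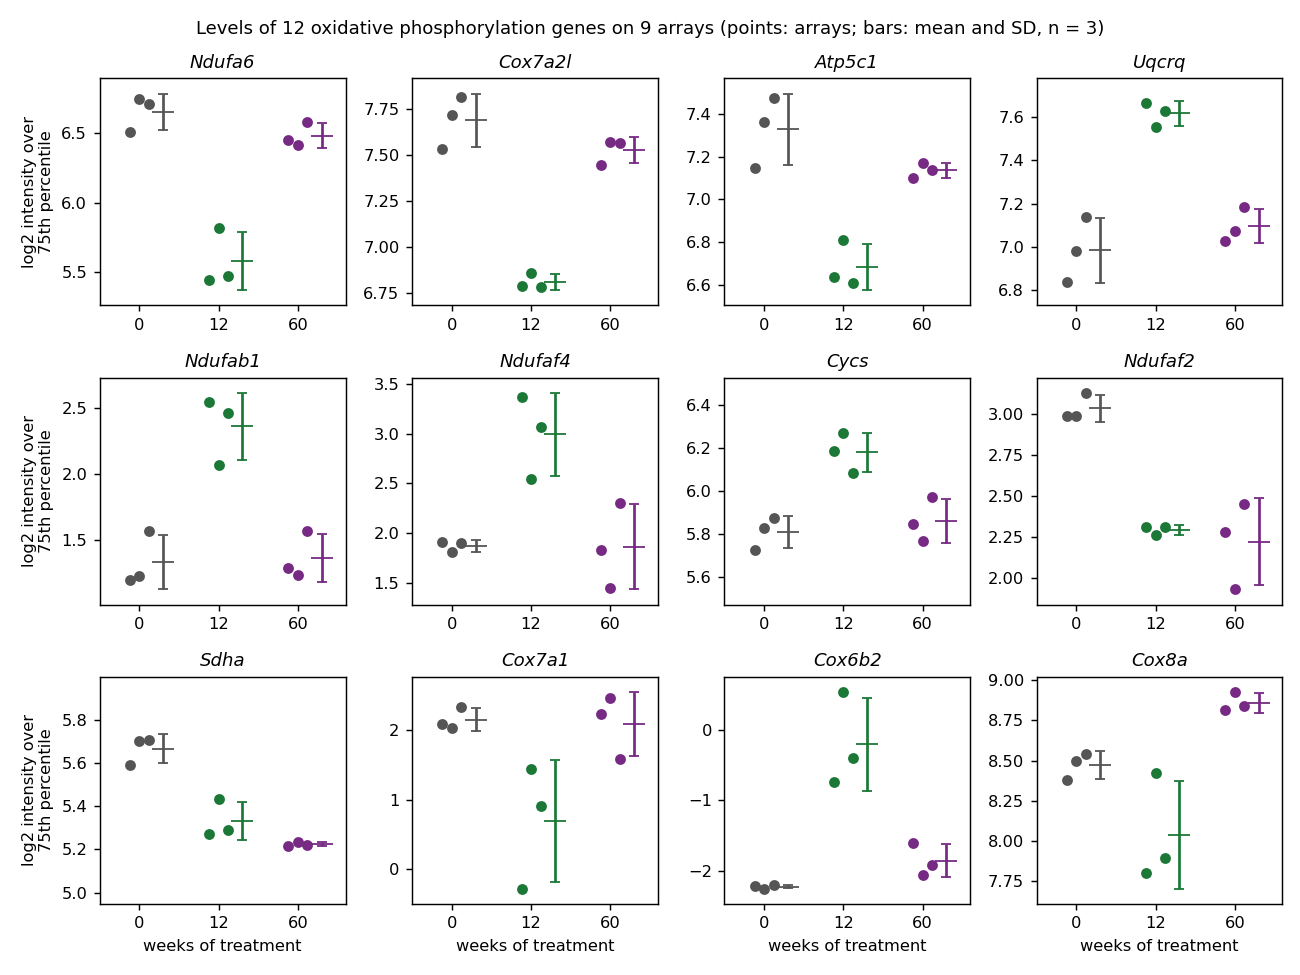
Log2 intensity relative to the array's 75th percentile (vertical axis, scaled per gene) of 12 genes at 0, 12 and 60 weeks (horizontal axis); points are arrays and bars give the mean and SD of 3 arrays. Ndufa6, Cox7a2l and Atp5c1 lie lowest and Uqcrq, Ndufab1, Ndufaf4, Cycs and Cox6b2 highest at 12 weeks, whereas Ndufaf2 and Sdha are low at both 12 and 60 weeks.

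Complex II, the succinate dehydrogenase that is also an enzyme of the citric acid cycle, has 4 subunits and all were tested. The catalytic flavoprotein Sdha was at 5.59, 5.70 and 5.71 on the 0-week arrays, 5.27, 5.43 and 5.29 on the 12-week arrays and 5.22, 5.24 and 5.22 on the 60-week arrays. Both treated groups lay below the untreated arrays, with differences of -0.34 (SE 0.09, adjusted p = 0.015) at 12 weeks and -0.44 (SE 0.09, adjusted p = 0.0056) at 60 weeks. Of the membrane anchors, Sdhc fell by 0.44 at 12 weeks (adjusted p = 0.029) and Sdhd by 0.30 at 60 weeks (adjusted p = 0.047). The iron-sulfur subunit Sdhb (chromosome 4) differed by 0.37 at 12 weeks (adjusted p = 0.051) and 0.27 at 60 weeks (adjusted p = 0.14).

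In complex III, 3 of 9 genes fell (33.3%, against 22.7% of all tested genes) and 1 rose (11.1%, against 19.1%) at 12 weeks. The median of -0.04 turned positive under quantile normalization (0.11). The Rieske iron-sulfur protein Uqcrfs1 had means of 5.51 ± 0.17 at 12 weeks and 6.07 ± 0.11 at 0 weeks (SD, n = 3 each). The groups did not overlap, and the gene fell by 0.56 (SE 0.12, adjusted p = 0.0074). The core protein Uqcrc2 fell by 0.48 (adjusted p = 0.011) and Uqcrb by 0.65 (adjusted p = 0.016). Uqcrq, a small subunit of the same complex, was at 6.84, 6.98 and 7.14 on the 0-week arrays, 7.67, 7.56 and 7.63 on the 12-week arrays and 7.03, 7.08 and 7.18 on the 60-week arrays. The 12-week arrays lay above all others, with a difference of 0.63 (SE 0.10, adjusted p = 0.0019) against 0 weeks, and its second probe gave 0.75. At 60 against 0 weeks 0 of the 9 were called, against 32.8% of all tested genes. Cyc1, the cytochrome c1 subunit, was called in no comparison (0.18 at 12 weeks and -0.17 at 60 weeks, both against 0 weeks).

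Cycs, the mobile electron carrier that also triggers apoptosis when it leaves the mitochondrion, was at 5.73, 5.83 and 5.88 on the 0-week arrays, 6.18, 6.27 and 6.08 on the 12-week arrays and 5.85, 5.77 and 5.97 on the 60-week arrays. Every 12-week array was above every untreated one, including replicate 2, which was its highest. It rose by 0.37 at 12 against 0 weeks (SE 0.10, adjusted p = 0.017) and fell by 0.32 at 60 against 12 weeks (adjusted p = 0.033). Its second probe differed by 0.25 and -0.30 in these comparisons.

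Complex IV had 20 genes on the array, of which 15 were tested. At 12 weeks 7 fell (46.7%, against 22.7% of all tested genes) and 2 rose (13.3%, against 19.1%). The median of -0.30 shrank to -0.02 under quantile normalization. Of the 11 broadly expressed subunits, 5 fell and Ndufa4, a subunit once assigned to complex I, rose by 0.38 (adjusted p = 0.029). Cox4i1 was at 7.56, 7.67 and 7.82 on the 0-week arrays, 7.27, 7.51 and 7.27 on the 12-week arrays and 7.27, 7.36 and 7.34 on the 60-week arrays. Both treated groups lay below the untreated arrays by a small margin, with -0.34 (adjusted p = 0.035) at 12 weeks and -0.36 (adjusted p = 0.033) at 60 weeks, and the first turned to 0.04 under quantile normalization. Cox8a (chromosome 19) was at 8.81, 8.93 and 8.84 at 60 weeks, against 7.80, 8.42 and 7.90 at 12 weeks. The 60-week arrays lay above those at 12 weeks, by 0.82 (SE 0.16, adjusted p = 0.0052), while neither time differed from 0 weeks by the test.

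The paralogous and tissue-restricted forms of complex IV subunits held the largest rise and the largest fall of all members at 12 against 0 weeks, by the fitted difference. Cox7a2l, whose protein links complexes III and IV into supercomplexes, was at 7.53, 7.72 and 7.82 on the 0-week arrays, 6.79, 6.86 and 6.78 on the 12-week arrays and 7.45, 7.57 and 7.56 on the 60-week arrays. The 12-week arrays lay below all others, replicate 2 among them, and the fall was 1.84-fold (log2 difference -0.88, SE 0.10, adjusted p = 0.00030). All 3 of its probes gave between -0.90 and -0.88 at 12 against 0 weeks. The heart and muscle form Cox7a1 was at 2.09, 2.03 and 2.34 on the 0-week arrays, -0.27, 1.44 and 0.91 on the 12-week arrays and 2.23, 2.46 and 1.58 on the 60-week arrays. The 12-week arrays were lowest but spread widely (log2 difference -1.46, SE 0.41, adjusted p = 0.022).

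Cox6b2, known as the testis form of subunit VIb, was at -2.21, -2.25 and -2.20 on the 0-week arrays, -0.74, 0.54 and -0.40 on the 12-week arrays and -1.60, -2.06 and -1.91 on the 60-week arrays. The 12-week arrays lay above all others, 4.06-fold higher than at 0 weeks (log2 difference 2.02, SE 0.29, adjusted p = 0.0010), and the 60-week difference of 0.37 was not called (adjusted p = 0.37). Its broadly expressed counterpart Cox6b1 differed by -0.30 at 12 weeks (adjusted p = 0.10). Of 7 muscle markers, 3 were above background and Ckm, Myh11 and Des were not, and their summed level was 0.116 to 2.70 at 0 weeks, 0.907 to 2.02 at 12 weeks and 1.04 to 1.32 at 60 weeks. Cox4i2, a form known from lung, was called in no comparison (-0.19 at 12 weeks and -0.19 at 60 weeks, both against 0 weeks).

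ATP synthase had 17 tested genes, of which 6 fell (35.3%, against 22.7% of all tested genes) and 0 rose (against 19.1%) at 12 weeks (median -0.27). Quantile normalization called 2 lower and 5 higher (median -0.01), where 21.3% of all tested genes were lower and 21.5% higher. The rotor subunit Atp5c1 was at 7.15, 7.36 and 7.48 on the 0-week arrays, 6.64, 6.81 and 6.61 on the 12-week arrays and 7.10, 7.17 and 7.14 on the 60-week arrays. The 12-week arrays lay below all others (log2 difference -0.64, SE 0.11, adjusted p = 0.0024), and the call held in all 22 alternatives. Of the catalytic head, Atp5a1 fell by 0.27 at 12 weeks (adjusted p = 0.046), which became 0.01 under quantile normalization. Its partner Atp5b (chromosome 10) was higher at 60 weeks, with 8.41, 8.55 and 8.45, against 8.01, 8.09 and 8.16 at 0 weeks. These groups did not overlap (log2 difference 0.39, SE 0.10, adjusted p = 0.019).

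A set of 3 genes encode the same mature c subunit of the membrane ring, and their differences were not alike. Atp5g2 fell by 0.59 at 12 against 0 weeks (adjusted p = 0.0060) and was 0.61 higher at 60 against 12 weeks. Atp5g1 was at 6.16, 6.21 and 6.32 at 60 weeks, against 6.55, 6.50 and 6.68 at 0 weeks, with no overlap, and fell by 0.35 (adjusted p = 0.025). Atp5g3 differed by -0.27 at 60 weeks (adjusted p = 0.093). The stalk subunit Atp5o fell by 0.47 at 60 weeks (adjusted p = 0.039), and Atp5md, a small membrane subunit encoded on chromosome 19, rose by 0.45 (adjusted p = 0.014).

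**Figure D4:**
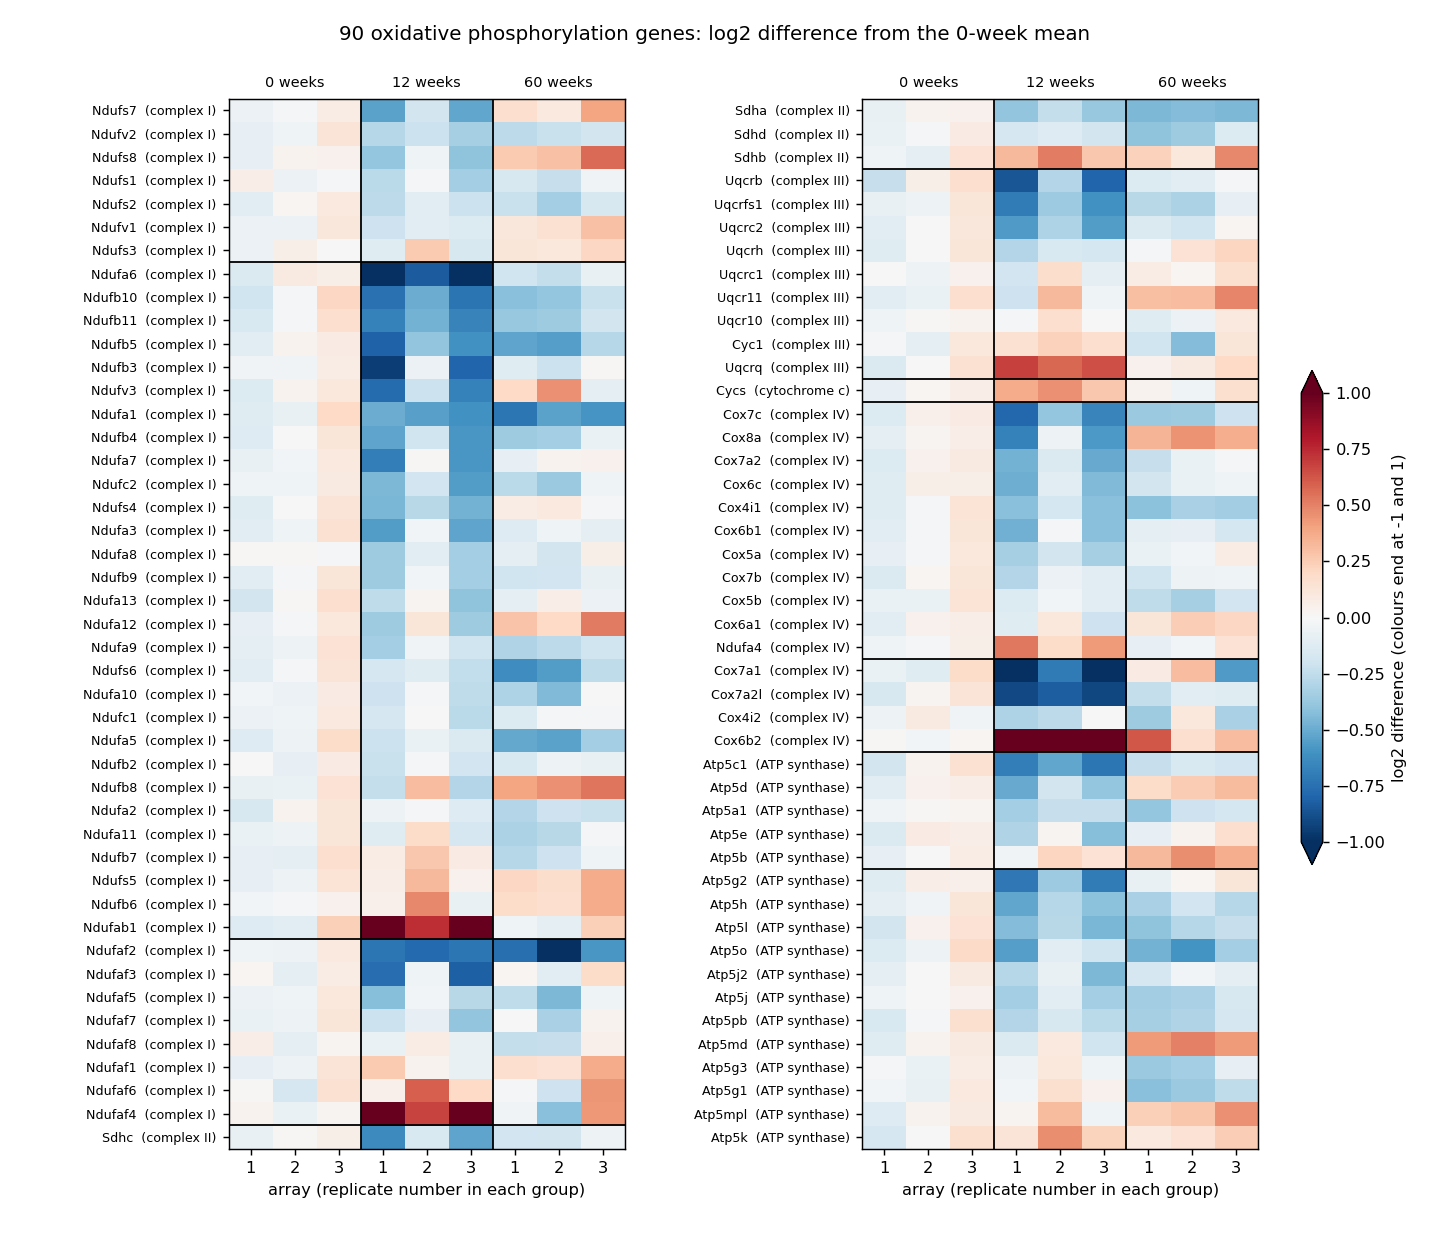
Each row is 1 of the 90 tested genes, grouped by complex and role and ordered by the 12-week difference, each column an array by group and replicate, and the colour the log2 difference from the gene's 0-week mean (red higher, blue lower). Blue is most common on replicates 1 and 3 at 12 weeks; Ndufab1, Ndufaf4, Uqcrq, Cycs and Cox6b2 are red on all 3 arrays at 12 weeks.

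The position of a gene on the chromosomes went with its 60-week difference. Over all tested genes on chromosomes 10 and 19, the median difference was 0.28 and 0.37 at 60 against 0 weeks, and 0.34 and 0.44 at 60 against 12 weeks. The 10 members there differed by 0.18 to 0.46 at 60 against 0 weeks, all above 0, and 8 of the 10 were called higher at 60 against 12 weeks, among 18 members called higher in all; of all 1147 tested genes there, 542 were called higher in that comparison. Both members called higher at 60 against 0 weeks, Atp5b and Atp5md, lie on these chromosomes. When each gene was set against the median of its chromosome, 0 members were higher and 5 lower at 60 against 0 weeks. Of all tested genes, 13.95% were then higher and 14.09% lower. At 60 against 12 weeks 18 members were higher and 5 lower, and 10 of these 18 were among the 18 called before. All tested genes had 22.05% higher and 15.45% lower there. The 70 members outside chromosomes 4, 5, 10, 12, 14 and 19, a split chosen after the data were seen, had 28 lower and 5 higher at 12 against 0 weeks, while the 10 on chromosomes 4, 5 and 12 (0 lie on 14) had 0 lower and 1 higher; of all tested genes, 2596 of 10147 were lower and 1555 higher outside the chromosomes named, and 346 of 2740 lower and 917 higher on chromosomes 4, 5, 12 and 14, with a median of 0.21. The part of these chromosome-wide shifts in the members' calls was not tested further.

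**Figure D5:**
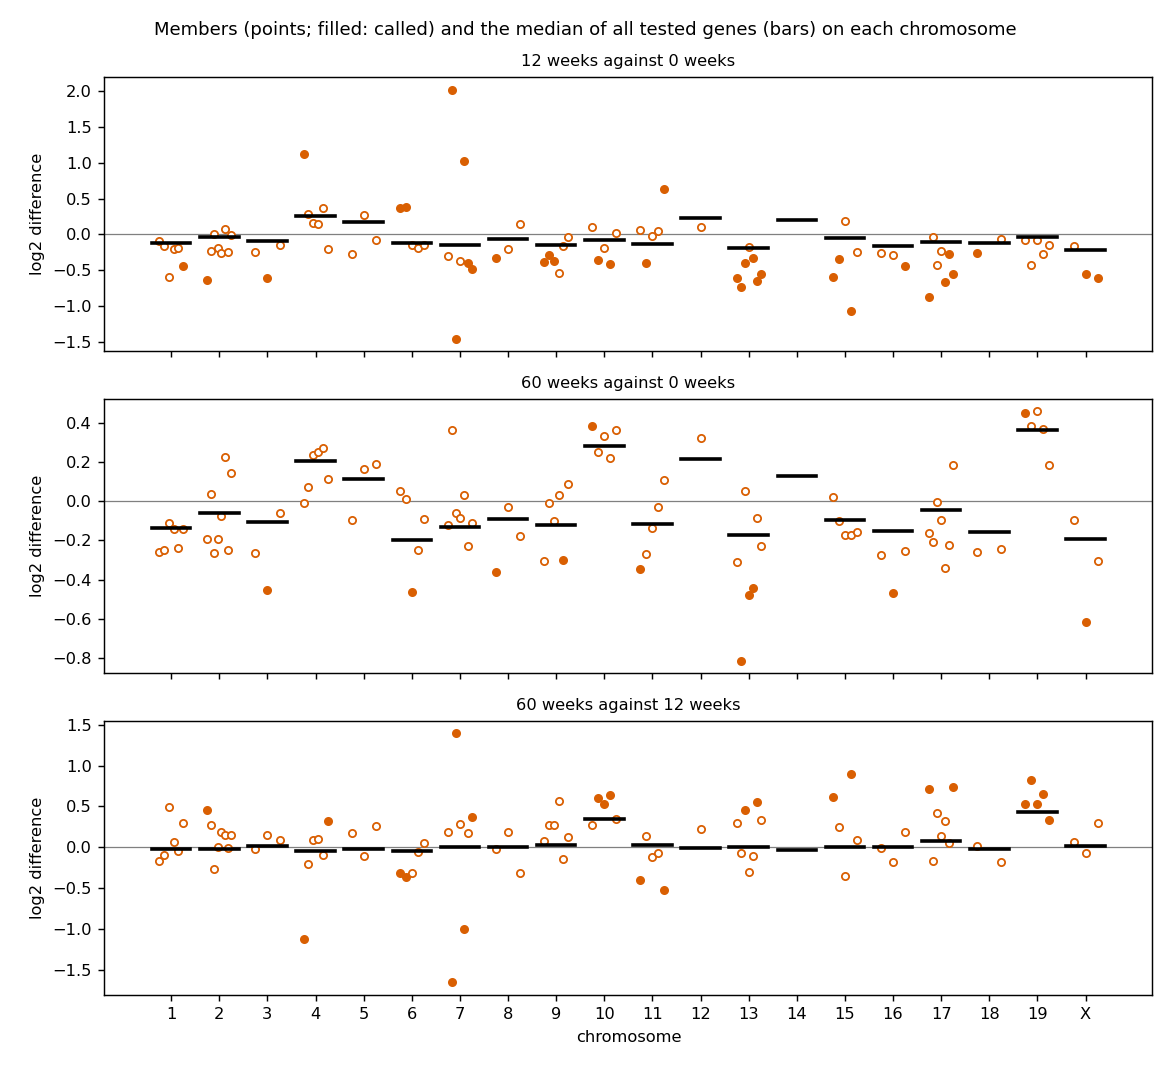
The log2 difference (vertical axis) of each tested member in 3 comparisons by chromosome (horizontal axis); filled points had an adjusted p under 0.05 and the black bars give the median over all tested genes of the chromosome. On chromosomes 10 and 19 the bars lie at 0.28 and 0.37 at 60 against 0 weeks, and all 10 members there lie above 0.

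The other genes of the mitochondrial program were read from lists alongside. The mitochondrially encoded subunits had 0 of 13 genes with a named probe, so only the nuclear share of each complex was measured. Of 40 tested assembly factors whose names fall outside the prefixes, 11 fell (27.5%, against 22.7% of all tested genes) and 2 rose at 12 weeks (5%, against 19.1%). Surf1, a complex IV assembly factor, averaged 3.98 ± 0.03 at 0 weeks, 3.24 ± 0.17 at 12 weeks and 3.95 ± 0.10 at 60 weeks (SD, n = 3 each). It was lower at 12 weeks by the test (log2 difference -0.74, adjusted p = 0.0012). Sco2, which delivers copper to complex IV, rose by 0.86 (adjusted p = 0.0018). The mitochondrial ribosomal proteins, the translation machinery for the mitochondrial subunits, had 10 of 77 lower (13%) and 3 higher (3.90%) at 12 weeks with a median of -0.06, and 5 lower and 5 higher at 60 against 0 weeks with a median of -0.09. The 60-week shares were 6.49% each, where 16.1% of all tested genes were lower and 16.7% higher.

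Among 20 regulators of mitochondrial biogenesis, 3 fell and 1 rose at 12 weeks, and 4 fell and 1 rose at 60 weeks, against 0 weeks, shares of 15% and 5%, then 20% and 5%. All tested genes had 22.7% lower and 19.1% higher at 12 weeks, then 16.1% and 16.7% at 60 weeks. The regulator that rose both times was Esrra, a nuclear receptor that acts on oxidative phosphorylation genes, with means of 4.72 ± 0.08 at 0 weeks, 5.21 ± 0.02 at 12 weeks and 5.73 ± 0.06 at 60 weeks (SD, n = 3 each). The differences were 0.49 (adjusted p = 0.0024) at 12 weeks and 1.01 (adjusted p = 6.0e-05) at 60 weeks. Ppargc1a, its coactivator, averaged -1.22 ± 0.41 at 0 weeks, -2.77 ± 1.28 at 12 weeks and -4.94 ± 1.35 at 60 weeks, and fell by 3.72 at 60 weeks (SE 0.77, adjusted p = 0.0072). Its probe was well above background on 2 of 3 arrays at 60 weeks and on all 3 of each other group, so the size of this fall is uncertain. Its 12-week difference of -1.56 was not called (adjusted p = 0.14). Ppargc1b fell by 0.64 at 60 weeks (adjusted p = 0.046), and Nrf1 was called at 60 against 12 weeks (-0.72, adjusted p = 0.023). Tfam and Polrmt, which transcribe the mitochondrial genome, were called in no comparison, with differences of -0.22 and 0.33 at 12 weeks and -0.05 and 0.29 at 60 weeks against 0 weeks.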

How the data were processed

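The members, gene lists and most tests were chosen with earlier results of these data known. Per the file headers, scanning software was Agilent Feature Extraction 10.7.3.1, and the deposited intensity is linear, background-subtracted and without scaling across arrays. The authors' value table, also deposited, gives a linear signal per probe (42530 rows): the intensity divided by 1 constant per array near its 75th percentile. Its column medians ran 0.0668, 0.0719, 0.0705 for the untreated arrays, then 0.0619, 0.0681, 0.0733 for 12 weeks, then 0.0673, 0.0695, 0.0582 for 60 weeks. It served as an alternative; all columns were matched to samples.

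Each intensity was divided by its array's 75th percentile (control probes aside) and put on a log2 scale, after leaving out 117 to 163 outlier spots of 59305 per array. Probes were kept when well above background on at least 2 of 3 arrays of a group, and a gene was read from its brightest kept probe, named through its accession in a RefSeq table (27235 probes named, 28446 not). This gave 14034 tested genes. A single limma model (version 3.58.1, R 4.3.3, lmFit with eBayes) covered the 9 arrays and gave two-sided tests, with Benjamini-Hochberg adjustment over all tested genes and a threshold of 0.05. The fit was tested on simulated data. The 19 pseudogene symbols that meet the name rule were among the 117 matching annotation symbols; whether probes also bind transcripts of close copies was not tested.

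Named were, per comparison, the 5 largest rises and 5 largest falls among called members, in each complex the 3 smallest p-values of the F test, a fixed panel of subunits, members whose probes disagreed in direction, and up to 3 genes of each other mitochondrial list with the smallest F test p, with fixed regulators. A few others were named after their values were seen (Ndufs7, Ndufs8, Uqcrb and Atp5g3 among the members, and the marker genes). Where the probes of a gene disagreed in direction, as for 6 members (Atp5g2, Atp5l, Atp5pb, Cycs, Ndufb5 and Ndufv3), this was in at least 1 comparison. Alternatives were other scalings and background corrections, filters, probe rules, blocks, array weights and leaving out each array. The normexp background correction (offset 50) used median foreground signals, since the files hold no mean signal, and array weights were estimated gene by gene. Replicate numbers were not used as a pairing in the main fit, since the labels only number the replicates. The correlation of arrays' deviations was -0.08 to 0.20 for same-numbered arrays and -0.24 to 0.16 for others. With 3 arrays a group these values cannot exclude a pairing.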

Additional observations from a re-analysis of the deposited data

How the results depend on the processing

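Leaving out 1 array at a time, the number of members that fell at 12 against 0 weeks was 12 to 44 (12 without 0-week replicate 3 and 44 without 12-week replicate 2) and the number that rose 4 to 7, with a median of -0.31 to -0.18. At 60 against 0 weeks it was 3 to 17 lower and 0 to 9 higher (median -0.14 to -0.05), and at 60 against 12 weeks 9 to 38 higher and 4 to 12 lower (median 0.07 to 0.22); the lowest counts of risers came without 0-week replicate 1 and 12-week replicate 3. Quantile normalization gave 15 higher and 17 lower at 12 against 0 weeks, with a median of -0.057. At 60 against 0 weeks it gave 4 higher and 19 lower, where 16.9% of all tested genes were higher and 16.5% lower. At 60 against 12 weeks it gave 11 higher and 19 lower, with a median of -0.049. It also turned the sign of Atp5a1 (0.015 at 12 against 0 weeks; -0.26, adjusted p = 0.040, at 60 against 12 weeks), Cox4i1 (0.045) and Cox6a1 (0.31, adjusted p = 0.020) at 12 against 0 weeks. Relative to the chromosome median, Ndufv1 differed by -0.023 at 60 against 12 weeks, and 0 members were higher and 5 lower at 60 against 0 weeks. With no filter on dim probes, 17 fell at 12 against 0 weeks and 5 at 60 against 0 weeks, where 12.8% and 8.99% of all tested genes fell. Array weights gave 49 lower at 12 against 0 weeks, 33 lower and 12 higher at 60 against 0 weeks, and 37 higher and 12 lower at 60 against 12 weeks. Of all tested genes, 32.5% were then lower at 12 against 0 weeks, and 28.4% lower and 25.8% higher at 60 against 0 weeks. At 60 against 12 weeks 30.7% were higher and 26.6% lower. With the slide's row as a block, 19 fell at 12 against 0 weeks, 2 fell and 0 rose at 60 against 0 weeks (median -0.30), and 7 were higher at 60 against 12 weeks. With the slide as a block, or with the percentile over probes above background on all 9 arrays, 12 were lower at 60 against 12 weeks. The shares of all tested genes were 17.19% with the slide block and 20.64% with that percentile. The slide block gave the same calls as leaving out 60-week replicate 3, the only array on slide 2, so these settings are not separate checks. Fits of only the 2 groups compared gave 20 lower and 6 higher of the 90 at 12 against 0 weeks. There 19.94% of all tested genes were lower and 17.19% higher. These fits gave 7 higher at 60 against 0 weeks and 11 higher at 60 against 12 weeks. Of all tested genes, 20.9% and 14.1% were higher in these fits. A replicate block gave 6 higher and 28 lower at 12 against 0 weeks, 2 and 9 at 60 against 0 weeks, and 18 and 7 at 60 against 12 weeks. In the same order, the shares of all tested genes were 18.9% and 22.4%, 16.08% and 15.65%, and 19.88% and 17.5%. The cause of these changes was not tested. Of 55 calls of named members, 17 held under every alternative, and of 68 named differences not called, 33 were called under none. Over all members, 9 of the 30 falls and 3 of the 6 rises at 12 against 0 weeks held under every alternative. At 60 against 0 weeks 0 of the 10 falls and 0 of the 2 rises did. For 60 against 12 weeks this was 2 of the 18 called higher and 3 of the 7 called lower. With 3 arrays a group, the number of arrays limits the precision.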

Other observations

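Lists for other steps of mitochondrial energy metabolism were read against the shares of all tested genes, of which 22.7% were lower and 19.1% higher at 12 weeks and 16.1% lower and 16.7% higher at 60 weeks, against 0 weeks. Of 19 citric acid cycle genes, 6 fell (31.6%) and 2 rose (10.5%) at 12 weeks, with a median of -0.0025, and 7 fell (36.8%) and 2 rose at 60 weeks. Idh2, the mitochondrial NADP-dependent isocitrate dehydrogenase, averaged 6.69 ± 0.07 at 0 weeks, 5.62 ± 0.18 at 12 weeks and 6.03 ± 0.16 at 60 weeks (SD, n = 3 each). It fell by 1.07 at 12 weeks (limma adjusted p = 0.00037) and by 0.66 at 60 weeks (adjusted p = 0.0049). Pcx, which makes oxaloacetate from pyruvate, fell by 0.58 at 12 weeks and by 0.68 at 60 weeks (adjusted p = 0.0025 and 0.0014), and Pdha1 of pyruvate dehydrogenase by 0.61 and 0.39 (adjusted p = 0.0013 and 0.013).

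Of 13 carriers for ATP, phosphate and protons, 5 fell (38.5%) and 2 rose (15.4%) at 12 weeks and 3 fell (23.1%) at 60 weeks, against 0 weeks. Slc25a4, an ADP/ATP carrier, had means of 5.04 ± 0.11 at 0 weeks, 6.08 ± 0.13 at 12 weeks and 1.84 ± 0.25 at 60 weeks (SD, n = 3 each). It rose by 1.04 at 12 weeks (adjusted p = 0.00078) and fell by 3.20 at 60 weeks (adjusted p = 2.4e-06), whereas the largest difference of an oxidative phosphorylation gene at 60 against 0 weeks was -0.81, in Ndufaf2. The aspartate/glutamate carrier Slc25a13 fell by 1.03 at 12 weeks (adjusted p = 0.00076). Of 18 import genes, 3 rose (16.7%) and 1 fell (5.56%) at 12 weeks, with Tomm40, the channel of the outer membrane, 0.86 higher (adjusted p = 0.00053) and 1.02 lower at 60 against 12 weeks (adjusted p = 0.00031). The mitochondrial ribosomal protein Mrpl20 rose by 0.95 at 12 weeks and Mrpl48 fell by 0.75 (adjusted p = 0.00031 and 0.00091).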
